A study of Mus musculus with 4 samples.

Results

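The G1 cyclins and their kinases were followed in MuSC, the satellite cells of adult skeletal muscle, after inactivation of *Prmt5*. The genes were chosen by name, with earlier results of these data already known. They were the D-type cyclins Ccnd1, Ccnd2 and Ccnd3, the E-type cyclins Ccne1 and Ccne2, the kinases Cdk2, Cdk4 and Cdk6, and the phosphatase Cdc25a. All 9 were present among the 20065 genes of the deposited table, and all 9 were among the 16212 genes tested. MuSC were purified from limb and trunk muscles of adult C57BL/6 mice by FACS, cultured and treated with tamoxifen, and total RNA was sequenced after removal of ribosomal RNA. The 2 control libraries came from Pax7CreERT2/Prmt5+/loxP (+TAM) cells, which the labels call wild type although they also carried the tamoxifen-dependent Cre, driven from the satellite cell gene Pax7, and 1 floxed allele. The 2 Prmt5sKO libraries came from Pax7CreERT2/Prmt5loxP/loxP (+TAM) cells, in which both alleles are floxed. The labels do not say whether the libraries of a group came from separate animals or cultures. The p-values measure only the spread between these libraries, whose source is not given. Within each group the libraries also differed in Xist, as given below.

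Mitogens drive a cell out of quiescence and through G1 largely by inducing D-type cyclins, which bind Cdk4 or Cdk6 and start the phosphorylation of the retinoblastoma protein. E-type cyclins then activate Cdk2, and the removal of inhibitory phosphates from Cdk2 by Cdc25a lets the cell enter S phase. Released E2F factors transcribe further genes for S phase, while inhibitors such as p21, the product of Cdkn1a, hold the cyclin-kinase complexes back. In muscle, cyclin D1 is known to counteract differentiation, whereas cyclin D3 is known to accumulate in differentiating myoblasts.

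The deposited values were group means. Read counts per library were worked back from them, and the libraries of a group are named here by their depth because the columns carry no replicate numbers. Totals ranged from 13240754 to 20047430 reads per library. A normalized count is a read count scaled to a common depth by the trimmed mean of M-values (TMM). Below, values are given for the deeper library of a group first. Prmt5 itself was at 2273 and 2906 normalized counts in control and at 244 and 202 in Prmt5sKO MuSC, so every library matched its label. Pax7, Myf5 and Myod1, which mark satellite cells and myoblasts, were detected in all 4 libraries at 1252 or more normalized counts. The shallower Prmt5sKO library stood apart: the 14 muscle differentiation markers summed to 447350 normalized counts there and to between 51070 and 99850 in the other libraries, and all 14 were highest in it. Markers of endothelial, haematopoietic, fibro-adipogenic and Schwann cells summed to at most 391 normalized counts in any library, and Cdh5, Itgam, Lum and Sox10 were at 0 in at least 1 library. The smooth muscle and pericyte markers summed to between 1779 and 6168, with Rgs5 at 1774, 128, 2367 and 4163 in the deeper control, shallower control, deeper Prmt5sKO and shallower Prmt5sKO library. Emcn, Ptprc and Adgre1 were also looked for by symbol but were not found in the deposited table, so they give no value. Xist was at 8668 and 5655 normalized counts in the deeper control and the shallower Prmt5sKO library, and at 23.3 and 8.15 in the other two. In these bulk libraries fewer cells of a type and less RNA per cell cannot be told apart.

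Of the 9 genes, 6 had both Prmt5sKO values below both control values: Cdc25a, Cdk6, Ccne1, Ccne2, Cdk2 and Cdk4. Over all genes tested, 23.6% lay in this way below the controls and 25.2% above them. The 3 D-type cyclins overlapped between the groups, and 0 of the 9 genes were higher in both Prmt5sKO libraries. By limma-voom, 4 of the 9 genes had an unadjusted p under 0.05 and were lower, against 6.95% of all genes tested that were lower at this level and 6.01% that were higher. Leaving out the shallower Prmt5sKO library raised this number, but the share over all genes was not computed for that fit. After Benjamini-Hochberg adjustment over all genes tested, limma-voom called 0 of the 9 genes and 0 of 16212 genes (0.00%), where a call needs an adjusted p no higher than 0.05 with a change of 2-fold or more. Leaving out the deeper or the shallower Prmt5sKO library gave 489 and 55 called genes, among them 0 of the 9. A replicate block that joins each deeper library to the shallower one of the opposite group gave 346 called genes, among them Cdc25a and Cdk6. This pairing joins the 2 libraries high in Xist and the 2 low in it. Pairing the deeper libraries, which joins a library high in Xist to one low in it, gave 0. No replicate number ties the libraries to either pairing. Without adjustment 2101 genes had a p under 0.05, and limma-trend likewise gave 0 genes with an adjusted p no higher than 0.05. The lowest adjusted p of any gene was 0.193, that of Prmt5, which had a log2 fold change of -3.52 (SE 0.27). The median log2 fold change was -0.65 for the 9 genes and 0.02 for all genes tested.

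**Figure D1:**
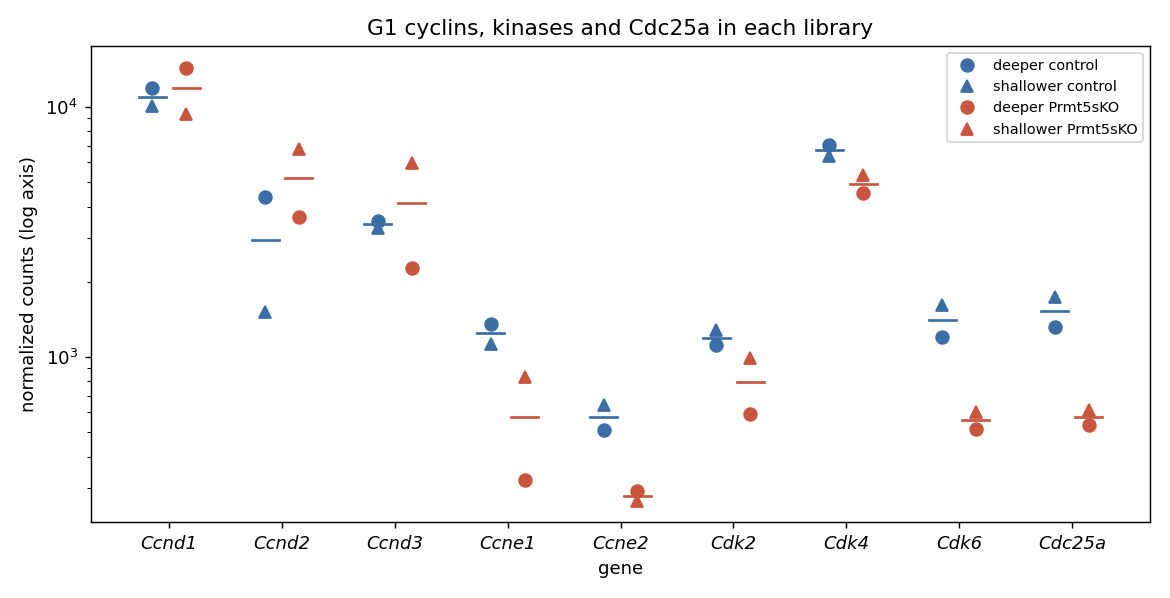
Normalized counts of the 9 genes in each library on a log axis, with control in blue and Prmt5sKO in red, circles for the deeper and triangles for the shallower library of a group, and short lines for the group means (n = 2). Cdc25a, Cdk6, both E-type cyclins, Cdk2 and Cdk4 lie below both controls in both Prmt5sKO libraries, while the D-type cyclins overlap.

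Cdc25a, the phosphatase that removes inhibitory phosphates from Cdk2, differed most. It was at 1322 and 1744 normalized counts in control MuSC, against 533 and 615 in Prmt5sKO MuSC. The 2 Prmt5sKO libraries lay close together, and the lower control was 2.15 times the higher Prmt5sKO library. The means were 1533 ± 298 in control and 574 ± 58.5 in Prmt5sKO MuSC (SD, n = 2 each). The log2 fold change was -1.41 (SE 0.24, 95% interval -2.0 to -0.82), with an unadjusted p of 0.0011 and an adjusted p of 0.206 in limma-voom. Leaving out any 1 library kept the log2 fold change between -1.62 and -1.20.

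The bases before the start of Cdc25a and of Cdk2 are shown because they hold letters of an E2F-type motif. Those of Ccne1 are shown because they hold none of the forms searched. Entries for 6 of the 9 genes, 7 in all since Ccnd3 has a pair of starts, were found in the RefSeq promoter sequences of GRCm38.p6, and Ccnd1, Ccnd2 and Ccne2 had no entry. The 250 bases before each start were searched on both strands for TTTCCCGC, TTTCGCGC, TTTGCCGC and TTTGGCGC, 8-letter forms of the E2F motif, and a match is printed in capitals. Each line runs 5′ to 3′ on the strand of the gene.
Cdc25a, chr9:109875329-109875578, plus strand: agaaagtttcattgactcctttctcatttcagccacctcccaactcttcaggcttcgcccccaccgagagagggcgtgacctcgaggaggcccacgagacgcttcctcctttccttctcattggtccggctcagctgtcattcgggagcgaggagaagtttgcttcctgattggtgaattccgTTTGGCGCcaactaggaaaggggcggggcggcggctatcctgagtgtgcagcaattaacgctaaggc
Cdk2, chr10:128705052-128705301, minus strand: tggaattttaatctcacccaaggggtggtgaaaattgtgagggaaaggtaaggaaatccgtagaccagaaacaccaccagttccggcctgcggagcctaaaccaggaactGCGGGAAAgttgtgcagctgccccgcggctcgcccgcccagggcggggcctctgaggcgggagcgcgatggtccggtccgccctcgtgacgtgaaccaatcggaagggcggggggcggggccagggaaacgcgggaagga
Ccne1, chr7:38107491-38107740, minus strand: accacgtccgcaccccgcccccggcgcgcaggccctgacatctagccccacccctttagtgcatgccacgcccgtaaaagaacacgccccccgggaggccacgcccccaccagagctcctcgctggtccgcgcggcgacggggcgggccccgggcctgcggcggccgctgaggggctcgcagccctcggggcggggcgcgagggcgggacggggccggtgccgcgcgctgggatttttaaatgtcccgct

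In Cdc25a the match ran from 67 to 60 bases before the start, and in Cdk2 a match on the opposite strand ran from 140 to 133 bases before it. Such a match was present in 2 of the 7 promoters of these genes and in 1.86% of the 32851 promoters of the same length. The windows of Cdk4, Cdk6, Ccne1 and both starts of Ccnd3 did not hold these letters. Other forms of the motif, and bases outside the windows, were not searched. For Cdk6 the window at chr5:3343643-3343892 lies after the start of the gene in GENCODE M21, 3341485. GGGCGG, the GC box, occurred 5 times before Cdk2, 4 times before Ccne1, 2 times before Cdc25a, 1 time before Cdk4 and 2 times and 1 time before the starts of Ccnd3, where a pair of matches in Cdc25a shared a base, and 32.7% of all promoters held it. CCAAT occurred 2 times before Cdc25a and 1 time each before Cdk2 and the second start of Ccnd3, against 33.8% of all promoters with at least 1 match. TTTGAA, the letters of the cell cycle homology region, were in none of the 7 windows and in 16.0% of all promoters. These matches describe letters only.

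Cdk6, a kinase that D-type cyclins activate, lay next to Cdc25a in the size of its difference. Its normalized counts were 1198 and 1613 in control, against 514 and 601 in Prmt5sKO MuSC. Both Prmt5sKO values were under the lower control by a factor of at least 1.99. The log2 fold change was -1.33 (SE 0.25, 95% interval -1.93 to -0.72), with an unadjusted p of 0.0017 and an adjusted p of 0.222 in limma-voom. Cdk4, the other partner of the D-type cyclins, was at 7049 and 6365 normalized counts in control, against 4515 and 5346 after inactivation. These groups did not overlap either, but the log2 fold change was smaller at -0.45 (SE 0.21, 95% interval -0.96 to 0.07), with an unadjusted p of 0.078 and an adjusted p of 0.419 in limma-voom. Cdk2, the kinase of the E-type cyclins, was at 1113 and 1279 in the control and at 591 and 993 in the Prmt5sKO libraries. Here the shallower Prmt5sKO library lay within 1.12 times of the lower control, and the log2 fold change of -0.65 (SE 0.30, 95% interval -1.38 to 0.07) had an adjusted p of 0.409 in limma-voom. Without the deeper Prmt5sKO library the log2 fold change of Cdk2 was -0.26, and without the shallower one it was -1.01.

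Both E-type cyclins were lower in Prmt5sKO MuSC, with different spreads. Ccne1 was at 1355 and 1130 normalized counts in control, but at 322 and 830 in Prmt5sKO MuSC, where the deeper library was the lower one. The Prmt5sKO libraries thus differed from each other by 2.57 times and the controls by 1.20 times. Its log2 fold change was -1.30 (SE 0.43, 95% interval -2.36 to -0.24), with an unadjusted p of 0.024 and an adjusted p of 0.327 in limma-voom, and it moved to -0.58 without the deeper and to -1.94 without the shallower Prmt5sKO library. Ccne2 was at 510 and 645 normalized counts in the control and 290 and 267 in the Prmt5sKO libraries. Its Prmt5sKO libraries were within 1.09 times of each other, below both controls. The log2 fold change of Ccne2 was -1.03 (SE 0.26, 95% interval -1.67 to -0.40), with an unadjusted p of 0.0073 and an adjusted p of 0.264 in limma-voom. The lowest read count behind any of these values was 265, that of Ccne2 in the shallower Prmt5sKO library, with an exact 95% Poisson interval of 234 to 299 that covers counting error only.

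The D-type cyclins, which mitogens induce first, overlapped between the groups. Ccnd1, the highest of the 9 per kb of exon in all 4 libraries, was at 11961 and 10072 normalized counts in control, against 14379 and 9419 in Prmt5sKO MuSC. The Prmt5sKO values lay on either side of both controls, and the log2 fold change was 0.08 (SE 0.27, 95% interval -0.59 to 0.75), with an adjusted p of 0.914 in limma-voom. It turned to -0.04 without the shallower control and to -0.22 without the deeper Prmt5sKO library. Ccnd2 was at 4371 and 1520 in control, against 3636 and 6771 in Prmt5sKO MuSC. The controls alone differed by 2.88 times, and the log2 fold change of 0.95 (SE 0.54, 95% interval -0.38 to 2.28) had an adjusted p of 0.485 in limma-voom. Without the shallower control library it was 0.20, without the deeper Prmt5sKO library 1.39, without the deeper control library 1.70 and without the shallower Prmt5sKO library 0.49. The 2 libraries highest in Ccnd2 were the 2 high in Xist, and the shallower control library was lowest in Ccnd2 and in Rgs5. The part of either in the values of Ccnd2 was not tested.

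Ccnd3 was at 3492 and 3293 normalized counts in control, within 1.06 times of each other, against 2276 and 5971 in Prmt5sKO MuSC, where the shallower library was the higher one. The Prmt5sKO libraries differed by 2.62 times, one below and one above both controls. The log2 fold change was 0.13 (SE 0.44, 95% interval -0.95 to 1.20), with an adjusted p of 0.918 in limma-voom, and leaving out the shallower Prmt5sKO library gave -0.58, leaving out the deeper one 0.82. The library high in Ccnd3 was the one high in muscle differentiation markers. Myog, a transcription factor of myoblast differentiation, was at 1436, 1189, 3707 and 19508 normalized counts in the deeper control, shallower control, deeper Prmt5sKO and shallower Prmt5sKO library. In the same order Acta1, skeletal actin, was at 2366, 1001, 4951 and 60227. Mylpf, a fast myosin light chain, was at 1771, 855, 2855 and 47465, and Tnnt2, a troponin T, at 2328, 2089, 3344 and 10211. Of the 14 differentiation markers, 4 passed 0.05 without adjustment in limma-voom, all higher, 10 were higher in both Prmt5sKO libraries without overlap, and 0 passed the adjusted threshold. Over all genes tested, 6.01% and 25.2% were higher in these ways. Their part in the values of Ccnd3 was not tested.

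**Figure D2:**
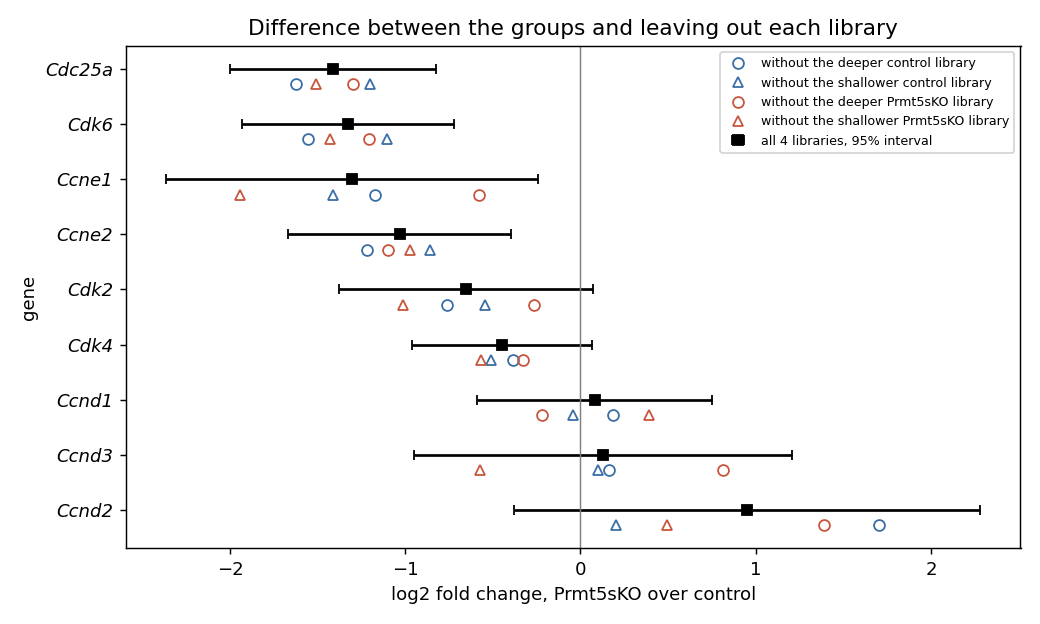
Log2 fold change of Prmt5sKO over control for each gene from limma-voom, with squares and bars for the estimate and its 95% interval from all 4 libraries, and open symbols for the estimate with 1 library left out. The intervals of Cdc25a, Cdk6, Ccne1 and Ccne2 lie below 0, and Ccnd1 and Ccnd3 change sign with the library left out.

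Levels were set against each other as normalized counts per kb of exon, where exon length is the union of a gene's exons. This length can exceed that of a transcript, as for Ccnd3 with 8775 bases against 3858 in its longest transcript. The order below is by this length. Parts of it change without division by length, as given at the end of this paragraph, and other lengths were not used for it. In control MuSC, Ccnd1 at 2339 ± 284 and Cdk4 at 2064 ± 149 (SD, n = 2 each) overlapped at the top of the order. Ccne1 followed at 467 ± 59.9, then Ccnd3 at 387 ± 16.0 and Ccnd2 at 313 ± 214, which overlapped each other. Ccnd2 also overlapped Cdk2 at 192 ± 18.8, which overlapped Cdc25a at 191 ± 37.2, and Cdc25a overlapped Ccne2 at 165 ± 27.3. Cdk6 was lowest at 100 ± 21, below the rest in both libraries. In Prmt5sKO MuSC the order began with Ccnd1 at 2527 ± 745 and Cdk4 at 1518 ± 181, which no longer overlapped. Ccnd2 at 553 ± 236, Ccnd3 at 470 ± 298 and Ccne1 at 216 ± 135 overlapped as neighbours, and Ccne1 overlapped Cdk2 at 127 ± 45.6. Ccne2 at 79.7 ± 4.84 and Cdc25a at 71.6 ± 7.29 overlapped, and Cdk6 was again lowest at 39.9 ± 4.41. By this measure Ccne1 stood above Ccnd3 in both control libraries and below it in both Prmt5sKO libraries. In normalized counts not divided by length, Ccne1 was below Ccnd3 in all 4 libraries. Cdk6, the lowest per kb of exon, was above Ccne2 in all 4 libraries in these undivided counts.

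Within the families, shares of reads per kb do not depend on the scaling between libraries. Ccnd1 made up 74.7% and 79.9% of the D-type cyclin reads per kb in control, against 82.5% and 58.8% in Prmt5sKO MuSC. Ccnd2 took 13.7% and 6.04% in control, against 10.4% and 21.2%. Ccnd3 took 11.7% and 14.0% in control, against 7.01% and 20.0% in Prmt5sKO MuSC. The shallower Prmt5sKO library had the lowest share of Ccnd1 and the highest shares of Ccnd2 and Ccnd3, and the deeper one had a share of Ccnd2 between the controls. The groups overlapped for all 3 (exact permutation p of 1.00, 0.667 and 1.00, two-sided). Ccne1 made up 77.7% and 69.7% of the E-type cyclin reads per kb in control and 59.3% and 80.3% in Prmt5sKO libraries (exact permutation p of 1.00). Cdk4 made up 96.2% and 94.4% of the Cdk4 and Cdk6 reads per kb in control and 97.4% and 97.5% in Prmt5sKO libraries, without overlap. Its exact permutation p of 0.333 is the smallest that 2 against 2 libraries allow, and this design cannot reach 0.05 for a single value. None of the 5 shares could therefore pass a correction for their number. The Cdk4 share also depends on the exon lengths used, 3249 bases for Cdk4 and 13989 for Cdk6. Its difference between the groups was 2.12 percentage points per kb of exon and 7.21 without division by length.

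Summed over the family, the D-type cyclins were at 3402 and 2676 normalized counts per kb in control and 3699 and 3400 in Prmt5sKO libraries. The E-type cyclins were at 655 and 609 in control and at 204 and 388 in Prmt5sKO libraries. The ratio of D-type to E-type cyclins in reads per kb was 5.20 and 4.40 in control, against 18.1 and 8.77 in Prmt5sKO MuSC. The 2 groups did not overlap in this ratio (exact permutation p of 0.333). D-type cyclins over the sum of Cdk4 and Cdk6 gave 1.51 and 1.29 in control and 2.59 and 2.01 in Prmt5sKO libraries. E-type cyclins over Cdk2 gave 3.66 and 2.96 in control and 2.15 and 2.43 in Prmt5sKO libraries, also without overlap.

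Cdkn1a, whose product p21 inhibits Cdk2 complexes, was at 3379 and 2057 normalized counts in control and at 8358 and 15703 in Prmt5sKO libraries, with a log2 fold change of 2.13 (SE 0.38) and an adjusted p of 0.214 in limma-voom. Set against the genes described here, Cdkn1a amounted to 1.45 and 0.95 times the E-type cyclins in reads per kb in control and to 11.5 and 11.4 times in Prmt5sKO libraries. Against the D-type cyclins it amounted to 0.28 and 0.22 times in control and 0.64 and 1.30 times in Prmt5sKO libraries. Against Cdk2 the ratio was 5.31 and 2.82 in control and 24.7 and 27.7 in Prmt5sKO libraries. None of these ratios overlapped between the groups, and each had the smallest exact permutation p this design allows, 0.333. For the E-type cyclins and Cdk2 this followed from the values above, since Cdkn1a was higher and these genes were lower without overlap. The ratios were not planned in advance.

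**Figure D3:**
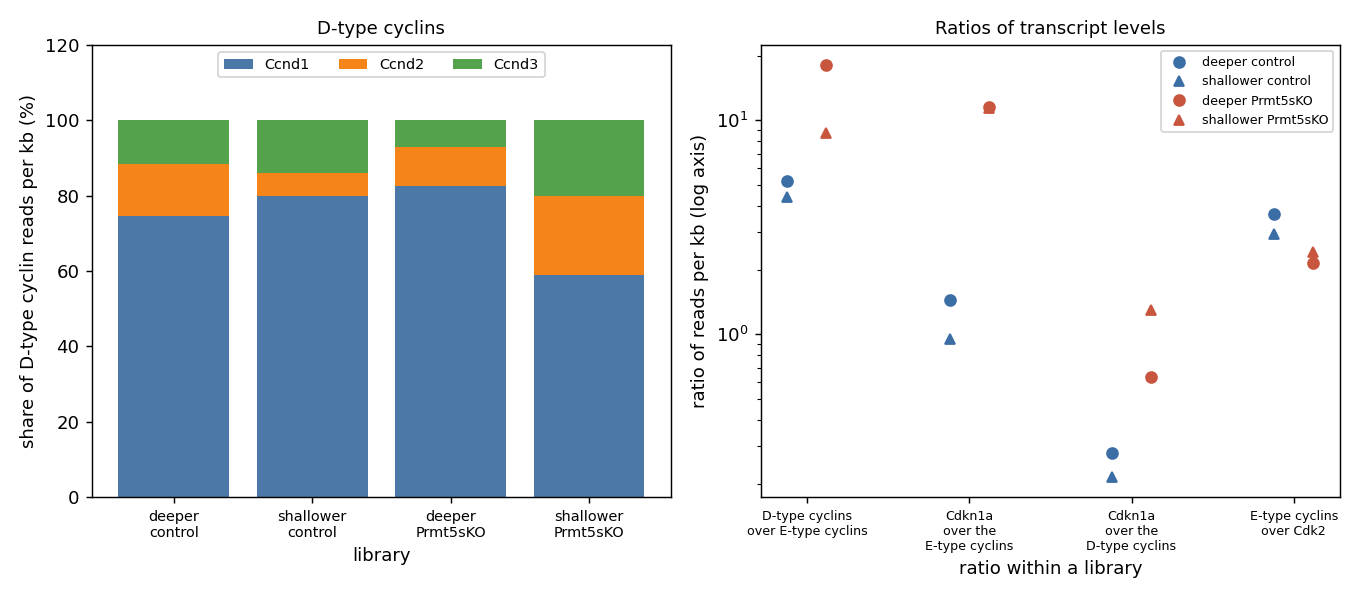
Left, shares of the D-type cyclins in reads per kb (%) in each library as stacked bars. Right, ratios of reads per kb within a library on a log axis, with control in blue, Prmt5sKO in red, circles for deeper and triangles for shallower libraries. The shallower Prmt5sKO library has the smallest share of Ccnd1 at 58.8%, and the ratio of Cdkn1a to the E-type cyclins is 11.5 and 11.4 in the Prmt5sKO libraries against 1.45 and 0.95 in the controls.

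In 6 lists of other genes of the G1 pathway, 52 genes were tested, of which 15 had an unadjusted p under 0.05 and were lower and 4 were higher, beside 6.95% and 6.01% of all genes tested. By limma-voom 0 passed the adjusted threshold (lowest adjusted p 0.203). The lists, too, were chosen with earlier results of these data known. Among the CDK inhibitors, 1 of 7 was past the unadjusted level, Cdkn1a, and the median log2 fold change was 0.03. Cdkn1c, which encodes p57, was at 45.2, 41.5 and 41.5 normalized counts in the first 3 libraries and at 362 in the shallower Prmt5sKO library. Cdkn2c and Cdkn2b, inhibitors of Cdk4 and Cdk6, had log2 fold changes of -0.39 (SE 0.37) and -0.33 (SE 0.31) in the other direction.

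The pocket proteins, which the cyclin-kinase complexes phosphorylate, and the E2F and DP factors that they bind had members in both directions. At an unadjusted p under 0.05 in limma-voom, 5 of 13 were lower and 2 higher, beside 6.95% and 6.01% of all genes tested. The median log2 fold change was -0.20. Rb1, the retinoblastoma gene, was at 446 and 502 normalized counts in control and 1118 and 1423 in Prmt5sKO libraries (log2 fold change 1.41, SE 0.25, adjusted p 0.208 in limma-voom). Rbl2, which encodes p130, was at 319 and 254 in control and at 581 and 470 in Prmt5sKO libraries. E2f7, a repressing E2F, was at 679 and 913 in control and at 214 and 242 in Prmt5sKO libraries, with the lowest adjusted p of the list, 0.203 in limma-voom. E2f8, a repressing E2F as well, was at 1731 and 1441 in control and at 656 and 826 in Prmt5sKO libraries. The other lower genes at the unadjusted level were E2f1, Rbl1 and Tfdp1, with log2 fold changes of -1.46, -0.94 and -0.66.

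The cyclins and kinases of later phases were the most uniform list, with 5 of 7 past the unadjusted level and lower, 7 of 7 lower without overlap, and a median log2 fold change of -0.74. Over all genes tested these shares were 6.95% and 23.6%. The 5 were Ccna2 with a log2 fold change of -1.07, Cdk1 with -0.94, Ccnf with -0.80, Cdc25c with -0.74 and Cdc25b with -0.55. Ccna2, the cyclin of S phase and G2, was at 2064 and 2490 normalized counts in control and at 1087 and 1065 in Prmt5sKO libraries. Cdk1, the mitotic kinase, was at 3461 and 3432 in control and at 1760 and 1837 in Prmt5sKO libraries. The kinases that hold Cdk2 or Cdk1 back or signal DNA damage had 3 of 6 lower at the unadjusted level, with a median of -0.67: Pkmyt1 at -1.32, Chek1 at -1.28 and Atm at -1.0 on the log2 scale.

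The CDK-activating kinase and the chaperones of these kinases had 0 of 6 genes past the unadjusted level in limma-voom and a median log2 fold change of -0.13. Cdk7, the activating kinase, had a log2 fold change of 0.45 (SE 0.23), and the chaperones Cdc37 and Hsp90ab1 had -0.45 (SE 0.20) and -0.35 (SE 0.22). Among the ubiquitin ligases of G1 cyclins and Cdc25a, 2 of 13 were lower and 1 was higher at this level, beside 6.95% and 6.01% of all genes tested, with a median of -0.04. Skp2, the F-box protein that recognises p27, was at 1154 and 1797 normalized counts in control and 622 and 640 in Prmt5sKO libraries, and its cofactor Cks1b was at 1268 and 1049 in control and 499 and 635 in Prmt5sKO libraries. Skp1a, the adaptor for F-box proteins such as Skp2, was at 2302 and 1870 in control and at 3471 and 3159 in Prmt5sKO libraries. Fbxw7, which recognises cyclin E, had a log2 fold change of 0.43 (SE 0.23).

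**Figure D4:**
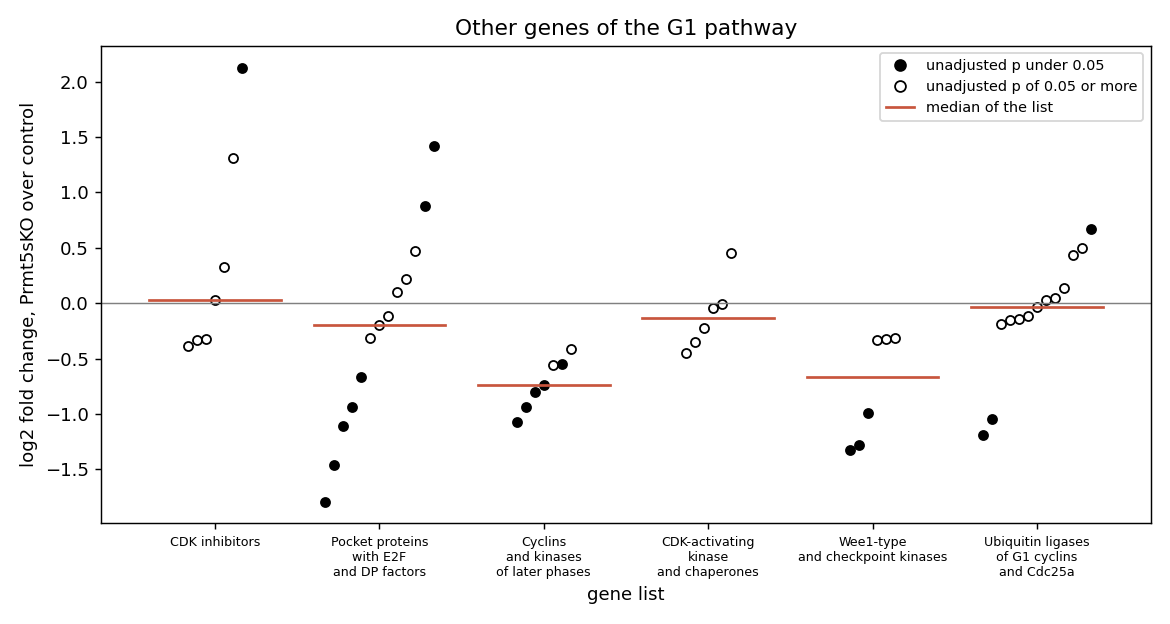
Log2 fold change of Prmt5sKO over control from limma-voom for the 52 genes of the 6 lists, 1 point per gene, filled where the unadjusted p is under 0.05, with a red line at the median of each list. The cyclins and kinases of later phases all lie below 0 with a median of -0.74, and the CDK inhibitors spread around a median of 0.03 with Cdkn1a highest at 2.13.

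For each of the 9 genes, the 10246 genes outside the 9 that averaged 100 normalized counts or more were ranked by how closely their centred log2 values followed it over the 4 libraries. The measure was the root mean square difference, which is 0 for identical patterns and is a description over 4 libraries that share their depth and scaling. Cdc25a and Cdk6 differed from each other by only 0.04 on this scale, the smallest difference of any pair of the 9. Neil3 was among the closest genes to both, at 0.03 for Cdc25a and 0.04 for Cdk6, with Cenps at 0.03 for Cdc25a and Cdca2 at 0.05 for Cdk6. Setd6 at 0.03 and Cenpi at 0.04 were closest to Ccne2, and H2afy2 at 0.07 and Cep295nl at 0.10 to Ccne1. Tubb3 at 0.02 and Sppl3 at 0.04 were closest to Cdk2, and 1810009A15Rik at 0.01 and Htra2 at 0.02 to Cdk4. Ywhaq at 0.02 and Hhat at 0.03 followed Ccnd1, Fbxo17 at 0.05 and Etfb at 0.07 followed Ccnd3, and Pcolce at 0.09 and Arrdc3 at 0.12 followed Ccnd2.

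The 9 genes lie on 7 chromosomes of GRCm38 by GENCODE M21. The D-type cyclins are at chr7:144929931-144939925 (Ccnd1, minus strand), chr6:127125162-127152193 (Ccnd2, minus) and chr17:47505051-47599691 (Ccnd3, plus), and the E-type cyclins at chr7:38097984-38107534 (Ccne1, minus) and chr4:11191351-11204779 (Ccne2, plus). Cdk2 is at chr10:128697939-128705031 (minus), Cdk4 at chr10:127063534-127067920 (plus), Cdk6 at chr5:3341485-3531008 (plus) and Cdc25a at chr9:109875579-109893895 (plus). Protein-coding genes on the opposite strand overlap Ccne2 (Ints8), Ccnd1 (LTO1), Cdk4 (Tspan31), Cdk2 (Pmel) and Ccnd3 (Bysl). Antisense RNA genes overlap Ccnd2 (Gm43126 and 9330179D12Rik) and Cdk6 (Gm17590 and Gm42435), and Mir7089 lies in Cdc25a on its strand. Whether the counting used strand is not given in the sources used here, so reads of an overlapping pair may not have been told apart.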

How the data were processed

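RNA-seq of 2 control and 2 Prmt5sKO MuSC libraries on the Ion Torrent Proton platform was analysed. Reads had been trimmed with Reaper by the authors, mapped to GRCm38 (STAR 2.4.0a) and the groups compared by DESeq2 (1.62, per the labels). The deposited signal values are the authors' group means of size-factor-normalized counts. The deposited log2 fold changes with their errors and the deposited p-values are the authors' comparison and were not used. Each group mean is a sum of whole multiples of 1 step per library. These steps gave back whole counts for 100% of 20065 genes in each group, with a relative residual of at most 5.9e-15. No gene had a second solution that matched as closely. Less close solutions within the accepted residual of 1e-13 were not counted. Library totals were 14436914 and 13240754 (control) and 20047430 and 16190414 (Prmt5sKO).

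Groups were compared by limma-voom (version 3.58.1 of limma in R 4.3.3). TMM factors were computed by own code that trimmed 30% of M and 5% of A values. Genes had to average 5 normalized counts, and p-values were adjusted over all of them by Benjamini-Hochberg. Intervals are at 95%. A call needed an adjusted p no higher than 0.05 with a change of 2-fold or more. Scripts were tested on simulated data. Symbols came from GENCODE M21, which gave a symbol for 19782 of the 20065 identifiers, and promoters from RefSeq (GRCm38.p6). Exon length is the union of a gene's exons. Named genes were the 9 genes, Prmt5 and Cdkn1a, in each list those past an unadjusted p of 0.05 where 6 or fewer and the 2 lowest p per direction, and the 2 genes outside the 9 closest to each of them. E2f1, Rbl1 and Tfdp1 were named in addition. The genes and lists were chosen with earlier results of these data known. Other normalizations, filters, tests, blocks and left-out libraries were tried as alternatives.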

Additional observations from a re-analysis of the deposited data

How the results depend on the processing

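With 2 libraries per group, limma-voom called 0 genes under the main settings, the other scalings, both filters, limma-trend, robust empirical Bayes and the authors' size factors, a scaling chosen after seeing the data. Leaving out 1 library gave between 0 and 489 called genes, with 489 without the deeper and 55 without the shallower Prmt5sKO library, where the lone library is assumed to vary like the other group. No replicate number is tied to a column, and the replicate block was therefore run for both pairings. With the deeper libraries paired it called 0 genes. With the crossed pairing, which joins libraries alike in Xist, it called 346 genes, with 2 of the 9 among them, Cdc25a and Cdk6. Differences within the groups correlated at -0.30 over 11487 genes when the deeper libraries were paired, and the cause of the gap between both pairings was not tested. The number of the 9 genes with an unadjusted p under 0.05 was 4 with all libraries and between 3 and 7 when 1 library was left out, with 7 without the shallower Prmt5sKO library. The number without overlap, 6 with all libraries, was between 6 and 9 with 1 library left out, where fewer libraries can overlap. The share of all genes without overlap was not computed there.

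The differences in shares (Prmt5sKO minus control, percentage points) ranged with 1 library left out from -18.5 to 5.25 for Ccnd1 (main -6.61), from -5.85 to 7.15 for Ccnd3 (main 0.65) and from -14.4 to 6.63 for Ccne1 (main -3.90). The reversed values were 5.25 for Ccnd1 and -5.85 for Ccnd3 without the shallower Prmt5sKO library, 6.63 for Ccne1 without the deeper Prmt5sKO library, and -0.51 for Ccnd3 and 0.12 for Ccne1 without the deeper control library. For Ccnd3 the difference was -0.79 without division by length and -0.84 by coding length. For Cdk4 these were 7.21 and 6.83, against 2.12. The median log2 fold change ranged from -0.43 to -0.026 for the pocket proteins with E2F and DP factors, from -0.78 to -0.66 for the later cyclins and kinases and from -0.81 to -0.50 for the Wee1-type and checkpoint kinases with 1 library left out. For the CDK inhibitors it ranged from -0.16 without the shallower control to 0.20 without the deeper Prmt5sKO library, for the CDK-activating kinase and chaperones from -0.23 without the deeper Prmt5sKO to -0.043 without the shallower control library, and for the ubiquitin ligases from -0.077 without the shallower to 0.037 without the deeper Prmt5sKO library. It was -0.63 for the later cyclins and kinases with library size only, a scaling that moved the median of all genes to 0.13. The log2 fold change reversed for Ccnd1 (-0.04 and -0.22, within a range of -0.22 to 0.39) and Ccnd3 (-0.58, within a range of -0.58 to 0.82) with 1 library left out. The causes were not tested.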

Other observations

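The genes with cyclin and Cdk symbols that stood in none of the lists above, 29 in all of which 28 were abundant enough to be tested, were looked at after the values of the 9 genes had been seen, so they are given as values with no test. Of the 28, 8 lay below and 9 above both controls in both Prmt5sKO libraries, beside 23.6% and 25.2% of all genes tested, with a median log2 fold change of 0.09. Ccng1, a cyclin that p53 is known to induce, was at 5607 and 2386 normalized counts in control, deeper library first, against 10197 and 12174 in Prmt5sKO MuSC. Ccng2, a cyclin linked to cell cycle arrest, was at 380 and 210 in control and at 744 and 707 in Prmt5sKO libraries. Among the kinases of transcription, Cdk9 was at 1450 and 1320 in control and at 719 and 924 in Prmt5sKO libraries, and Cdk12 at 2247 and 3256 in control and 1792 and 1748 in Prmt5sKO libraries. Cdk18 was at 649, 538 and 326 in the first 3 libraries and at 1524 in the shallower Prmt5sKO library, the one with the highest sum of muscle differentiation markers.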
